A study of Danio rerio with 6 samples.

Results

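The proneural basic helix-loop-helix (bHLH) transcription factors were followed in the spinal cord of adult zebrafish after transection. The 10 genes were taken by symbol from the 14781 gene rows of the count files, where all 10 were found. The list of symbols is not a threshold on measured values, but it was drawn up with earlier results of these data known. They are ascl1a and ascl1b of the achaete-scute family, neurog1 of the neurogenin family, neurod1, neurod2, neurod4, neurod6a and neurod6b of the Neurod family, atoh1a of the atonal family, and nhlh2. Bulk RNA-seq compared 3 libraries from sham fish with 3 libraries from injured fish at 1 week post injury (1 wpi). The fish were adults of the EK strain, males and females, for which the labels name no mutation or transgene, and the shams were clutchmates whose cord was exposed through an incision but left intact. Treatment labels call the control cords uninjured, and titles call them sham. Each sample held the 2 mm of cord on the rostral side and the 2 mm on the caudal side of the lesion, or the same portion of a sham cord. Neither labels nor methods say how many fish went into a sample, and p-values therefore cover the spread among these libraries only, which may be partly technical.

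Proneural factors turn dividing progenitors into neurons. They bind a short DNA motif, the E box, as dimers with widely expressed E proteins, and they switch on neuronal genes together with Delta ligands, which activate Notch in neighbouring cells. Notch in turn raises Hes and Her repressors, which hold proneural genes down, and Id proteins block dimers by taking up E proteins. Achaete-scute and neurogenin genes act early, in progenitors, whereas Neurod and Nhlh genes follow in cells that are becoming neurons, and some Neurod genes stay on in mature neurons. In the zebrafish spinal cord new neurons after injury come from ependymo-radial glia (ERGs), the cells that line the central canal.

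RNA of the whole tissue was counted, so more cells of a type and more RNA per cell cannot be told apart in any value given here. Reads counted in genes numbered 19310220 to 24161526 in sham libraries and 21926842 to 30147448 in injured libraries. Levels are given as counts per 1000000 reads (CPM) of a library size scaled by TMM, and depend on transcript length, so they are compared between libraries and not between genes. The tissue held the RNA that its label implies: ERG genes summed to 17316 to 23132 CPM in sham and 24314 to 25225 CPM in injured libraries, and genes of mature neurons to at least 14728 CPM in every library. Of 13 genes listed for forebrain, midbrain and cerebellum, 10 had a mean under 1 CPM. Among the others, ca8 had 43.9 to 71.8 CPM in sham and 46.8 to 50.9 CPM in injured libraries. eomesa and otx1b had 10.3 and 15.8 CPM in sham replicate 1, and at most 1.71 and 0.557 CPM in any other library. Sham replicate 1 stood apart from the other sham libraries. Its oocyte genes summed to 514 CPM, against at most 34.3 CPM in the other 5 libraries, its cell cycle genes to 1219 CPM against 362 and 318 CPM in the other shams, and its neuronal genes to 19447 CPM against 30632 and 34672 CPM. Its microglia and macrophage genes summed to 5276 CPM, against 3232 and 3158 CPM in the other shams and 9832 to 10798 CPM in injured libraries. For the neuronal and microglial sums it thus lay between the other shams and the injured libraries. Rows of reads not assigned to a gene made up 44.3% of its reads, 51.5% and 51.9% of those of the other shams and 41.8% to 42.6% of those of the injured libraries. Skeletal muscle genes summed to 26456, 11891 and 8425 CPM in sham and to 53783, 15978 and 21131 CPM in injured replicates 1, 2 and 3. With all libraries 0 of 17 passed in either direction, and without sham replicate 1, 11 of 17 were higher (background: 29%). Injured replicate 1 was the highest of its group, as it was for the myogenic bHLH genes, at 48.5 CPM against 17.7 and 21.9 CPM. Of these 4 genes, 2 were higher without sham replicate 1. When injured replicate 1 was left out, the log2 fold change of neurod4 was 1.45 and that of nhlh2 0.64. The members and the counts of each list described below are therefore given with and without sham replicate 1, and the part of these differences in the results was not tested. In the fit without it 29% of all genes were higher and 28.2% lower, the background of every count given without that library.

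Injury was accompanied by higher RNA levels of neurod4 and nhlh2, while no proneural gene passed the test as lower with all 6 libraries. Of the 10 genes, 9 passed the filter on low counts and were tested in a fit over 12804 genes (edgeR, quasi-likelihood test, Benjamini-Hochberg adjustment, adjusted p below 0.05). Of these 9, 2 rose (background: 5.81% of all tested genes), 0 fell (background: 4.83%) and 7 did not pass. At an unadjusted p below 0.05 there were 5 members (background: 38.2%). Injured levels lay above sham levels in all libraries for 4 members (background: 22.9% of genes in this direction) and below in 0 (background: 21.8%), and the groups overlapped for 5. Across both directions 44.4% of the tested members had groups without overlap, against 44.7% of all genes, a share near the background. With all 6 libraries DESeq2 called 4 members higher (background: 14.8%) and 1 lower (background: 14.8%). Without sham replicate 1 edgeR called 3 higher (neurod4, nhlh2 and ascl1a) and 2 lower (neurod1 and neurod6a), where 57.2% of all genes were called in either direction. The median log2 fold change of the 9 was 0.13, against -0.03 for all genes tested. Without sham replicate 1 it turned to -0.05, against -0.01 for all genes.

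**Figure D1:**
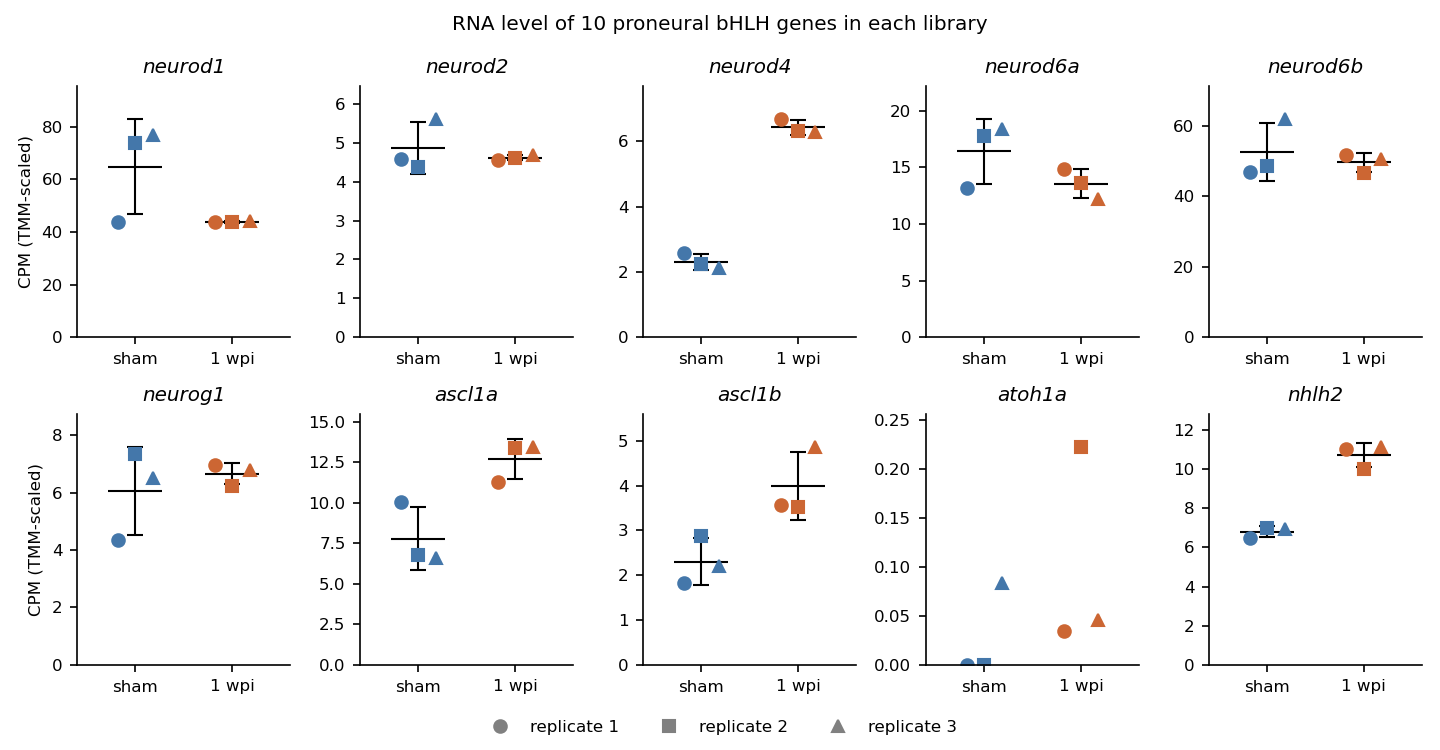
RNA level of each proneural gene in each library, in CPM on the TMM-scaled library size, for sham and 1 wpi cords, with a separate vertical axis per gene. Symbols mark the replicate, and horizontal lines and bars give the mean ± SD of 3 libraries, left out for atoh1a, which had 0 to 6 reads. For neurod4, nhlh2, ascl1a and ascl1b every injured library lies above every sham library, and for neurod1 sham replicate 1, at 44.0 CPM, lies with the injured libraries.

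Achaete-scute genes are the earliest acting of the set, and in the injured zebrafish retina ascl1a is needed for Müller glia to return to a dividing progenitor state. In replicate order, the order used throughout, ascl1a had 10.03, 6.78 and 6.58 CPM in the sham libraries and 11.3, 13.4 and 13.5 CPM in the injured ones. The groups did not overlap, but sham replicate 1 was closer to the lowest injured library than to the other shams. The means were 7.80 ± 1.94 CPM in sham and 12.7 ± 1.24 CPM in injured cords (SD, n = 3 each), and the log2 fold change of 0.71 (standard error, SE, 0.198) did not pass the test with all libraries (edgeR adjusted p = 0.0648). Without sham replicate 1 it passed, with a log2 fold change of 0.93 (edgeR adjusted p = 0.00114). DESeq2 called ascl1a with all 6 libraries as well (adjusted p = 0.0161), but not with every library left out, where the DESeq2 adjusted p reached 0.121.

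Its paralog ascl1b, which in the zebrafish embryo marks neural progenitors of the brain and cord, had few reads, from 37 to 107 in a library. Its levels were 1.83, 2.88 and 2.21 CPM in sham and 3.58, 3.53 and 4.87 CPM in injured libraries. The groups again did not overlap, and here sham replicate 1 was the lowest library of all, on the far side from the injured cords. The log2 fold change was 0.79 (SE 0.248) and did not pass (edgeR adjusted p = 0.0786), nor did it without sham replicate 1 (0.65, adjusted p = 0.0532), whereas DESeq2 gave an adjusted p of 0.0465. With each library left out, the DESeq2 adjusted p of ascl1b ran from 0.0417 to 0.231. limma-voom with sample weights called 3 members higher and 2 lower, ascl1a among the former, but in a fit where 29.2% of all genes were higher and 29.7% lower (58.9% in all).

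ascl1a reads per ascl1b read were compared within each library, a ratio that does not depend on library scaling. The ratio was 5.49, 2.35 and 2.98 in the sham libraries and 3.16, 3.79 and 2.77 in the injured libraries. The 2 groups overlapped, with sham replicate 1 the highest of the 6 libraries and sham replicate 2 the lowest. Injured minus sham, the mean log2 ratio differed by -0.07, and by 0.28 without sham replicate 1 and 0.03 without injured replicate 3, so no direction can be given. This ratio and the others below, 14 in all, were chosen after levels had been seen and are given as descriptions, with no test.

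neurog1 encodes a neurogenin that starts neuronal fate in progenitors, among them those of sensory ganglia in zebrafish. Its levels were 4.35, 7.34 and 6.49 CPM in sham and 6.94, 6.24 and 6.78 CPM in injured libraries. The injured libraries lay inside the range of the shams, whose lowest value was that of sham replicate 1. The log2 fold change was 0.13 (SE 0.215, edgeR adjusted p = 0.666) and turned to -0.05 without sham replicate 1. An annotated gene of another function, polr2g, overlaps neurog1 in the RefSeq table, and the strand setting of the counting is not given, so reads of both genes could be mixed.

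Among the later acting genes, neurod4 had the largest fold change of the members. It encodes a bHLH factor of differentiating neurons, best known from the embryonic retina, brain and cord. Sham replicates 1, 2 and 3 had 2.57, 2.23 and 2.12 CPM, from 52, 48 and 51 reads. Injured replicates 1, 2 and 3 had 6.70, 6.32 and 6.28 CPM, from 191, 170 and 138 reads. The lowest injured library was more than double the highest sham library, and the libraries of a group lay close together, sham replicate 1 included. The counting error of a single sham value was 13.9% to 14.4%. The sham mean of 2.31 ± 0.233 CPM and the injured mean of 6.43 ± 0.230 CPM (SD, n = 3 each) differed 2.79-fold (log2 fold change 1.48, SE 0.154, edgeR adjusted p = 0.0281), and 99.0% of all tested genes had a lower log2 fold change. Without sham replicate 1 the log2 fold change was 1.56 (edgeR adjusted p = 0.000295). When any of the other 5 libraries was left out, edgeR called 0 genes of all those tested, with 3026 to 3440 genes at an unadjusted p below 0.05, and neurod4 then had adjusted p-values from 0.105 to 0.169. DESeq2 called neurod4 with each library left out, with an adjusted p of at most 3.2e-05.

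nhlh2, a bHLH gene of newly formed neurons in the embryonic nervous system of mouse, also rose. It had 6.47, 7.01 and 6.95 CPM in sham and 11.01, 9.996 and 11.2 CPM in injured libraries. All 3 injured libraries lay well above all 3 sham libraries, and sham replicate 1 was the lowest of the 6. The sham mean was 6.81 ± 0.296 CPM and the injured mean 10.7 ± 0.630 CPM (SD, n = 3 each), a log2 fold change of 0.65 (SE 0.113, edgeR adjusted p = 0.0346), which was 0.62 without sham replicate 1 (adjusted p = 0.00281). As for neurod4, the edgeR call was lost when any of the other 5 libraries was left out (adjusted p from 0.112 to 0.169), and DESeq2 kept it with each library left out (adjusted p at most 0.0181). The rise of nhlh2 was smaller than that of neurod4: within libraries, nhlh2 reads per neurod4 read were 2.52, 3.15 and 3.27 in sham and 1.64, 1.58 and 1.78 in injured libraries, without overlap.

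**Figure D2:**
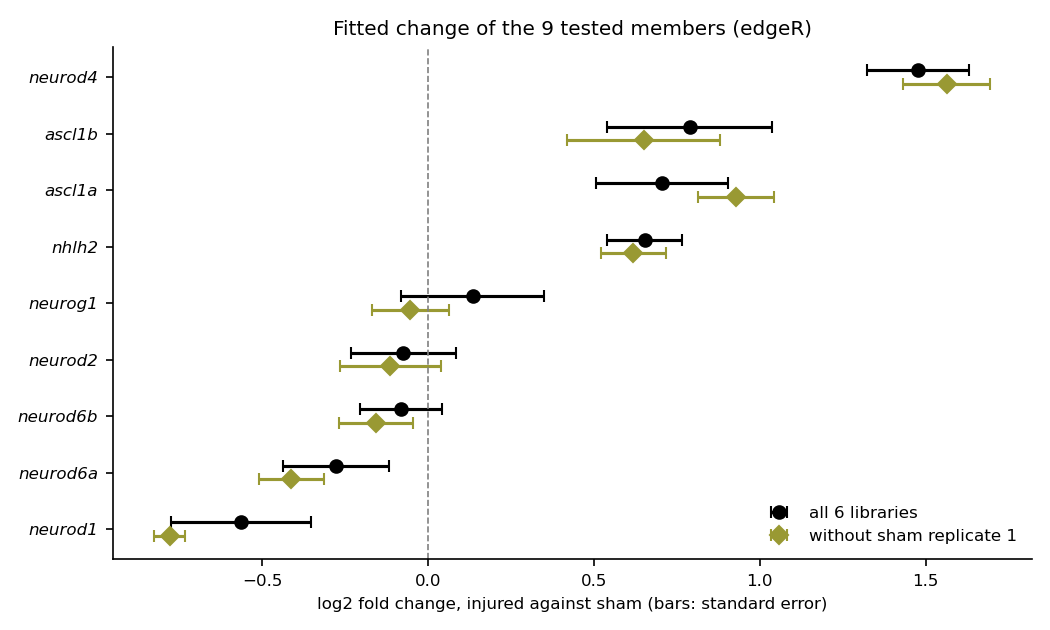
Fitted log2 fold change of each tested proneural gene, injured against sham cords, from edgeR with all 6 libraries (black circles) and without sham replicate 1 (olive diamonds), with bars for the standard error. neurod4, ascl1b, ascl1a and nhlh2 lie above 0 in both fits, neurod1 and neurod6a lie below 0 in both and farther below without sham replicate 1, and neurog1 changes sign.

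neurod1 is a target of neurogenins that drives neuronal differentiation and also stays on in some mature neurons. It had 44.0, 73.9 and 76.8 CPM in the sham libraries, against 43.8, 43.7 and 44.2 CPM in the injured ones. Sham replicate 1 lay at the injured level, inside the narrow range of the injured libraries, and the other shams lay far above it. The means were 64.9 ± 18.2 CPM in sham and 43.9 ± 0.314 CPM in injured cords (SD, n = 3 each), and the log2 fold change of -0.56 (SE 0.210) did not pass (edgeR adjusted p = 0.109). DESeq2 placed it just past the threshold (adjusted p = 0.0494), but its DESeq2 adjusted p reached 0.252 when a library was left out. Without sham replicate 1 neurod1 fell, with a log2 fold change of -0.78 (SE 0.0463, edgeR adjusted p = 0.000121), so 1 library decided this call.

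neurod6a and neurod6b are co-orthologs of mouse Neurod6, which is known from excitatory neurons of the forebrain and from amacrine cells of the retina. neurod6a had 13.1, 17.7 and 18.4 CPM in sham and 14.8, 13.6 and 12.2 CPM in injured libraries. As for neurod1, sham replicate 1 was the low library of its group and lay among the injured cords. The log2 fold change was -0.28 (SE 0.160, edgeR adjusted p = 0.245) with all libraries and -0.41 without sham replicate 1, where it passed (adjusted p = 0.0135). neurod6b had 46.9, 48.6 and 61.9 CPM in sham and 51.6, 46.5 and 50.6 CPM in injured libraries. Its groups overlapped, only sham replicate 3 standing higher, and it did not pass in either fit (log2 fold change -0.08, SE 0.123, edgeR adjusted p = 0.644; -0.16 and adjusted p = 0.273 without sham replicate 1). neurod6a reads per neurod6b read were 0.280, 0.365 and 0.297 in sham and 0.287, 0.292 and 0.242 in injured libraries, with overlapping groups. The RefSeq table places itprid1 over neurod6a and fyco1b over neurod6b, so some of these reads could belong to the overlapping genes.

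neurod2, in mouse a gene of maturing excitatory neurons, had the log2 fold change nearest 0 of the tested members. It had 4.59, 4.37 and 5.62 CPM in sham and 4.56, 4.61 and 4.69 CPM in injured libraries, the latter inside the range of the former. Its log2 fold change was -0.07 (SE 0.158, edgeR adjusted p = 0.747), and it was 0.04 without sham replicate 3. neurod2 overlaps med1 in the RefSeq table.

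atoh1a, the atonal gene of the rhombic lip, of hair cells and of the most dorsal interneurons of the embryonic cord, was at the limit of detection. It had 0, 0 and 2 reads in the sham libraries and 1, 6 and 1 reads in the injured libraries. Only injured replicate 2 exceeded 3 reads, the floor used here, which corresponds to 0.105 to 0.148 CPM in these libraries. atoh1a was not tested, and a difference of its level was not detectable at this depth. The RefSeq table places LOC141375650 over atoh1a, so some of these few reads could belong to the overlapping gene. Genes of hair cells, which also use atoh1a, summed to 78.3 to 109 CPM in sham and 69.1 to 70.8 CPM in injured libraries, most of it otofa and myo7aa. Of 8 tested, 1 rose and 1 fell (background: 5.81% and 4.83%). otofa fell (log2 fold change -1.06, edgeR adjusted p = 0.0424), and tmc2a rose (1.88, adjusted p = 0.0427) at means of 0.170 CPM in sham and 0.632 CPM in injured cords. Without sham replicate 1, 3 were higher and 1 lower (background: 29% and 28.2%).

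Levels of neurod4 were also set against other genes within each library. neurod4 reads per neurod1 read were 0.0584, 0.0302 and 0.0276 in the sham libraries and 0.153, 0.145 and 0.142 in the injured ones. The lowest injured ratio was above the highest sham ratio, that of sham replicate 1, and the geometric mean of the ratio was 4.01-fold higher in injured cords. Set against neurog1, neurod4 had 0.591, 0.304 and 0.327 reads per read in sham and 0.965, 1.01 and 0.926 in injured libraries, again without overlap. Set against elavl3, which encodes the neuronal RNA-binding protein HuC, it had 0.0133, 0.0108 and 0.0089 reads per read in sham and 0.0351, 0.0320 and 0.0306 in injured libraries. neurod4 thus rose while neurog1, neurod1 and elavl3 changed little or fell (log2 fold changes 0.13, -0.56 and -0.11 with all libraries). The ratios restate that difference and are not separate evidence for the rise. The 4.01-fold difference also holds the lower injured mean of neurod1.

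**Figure D3:**
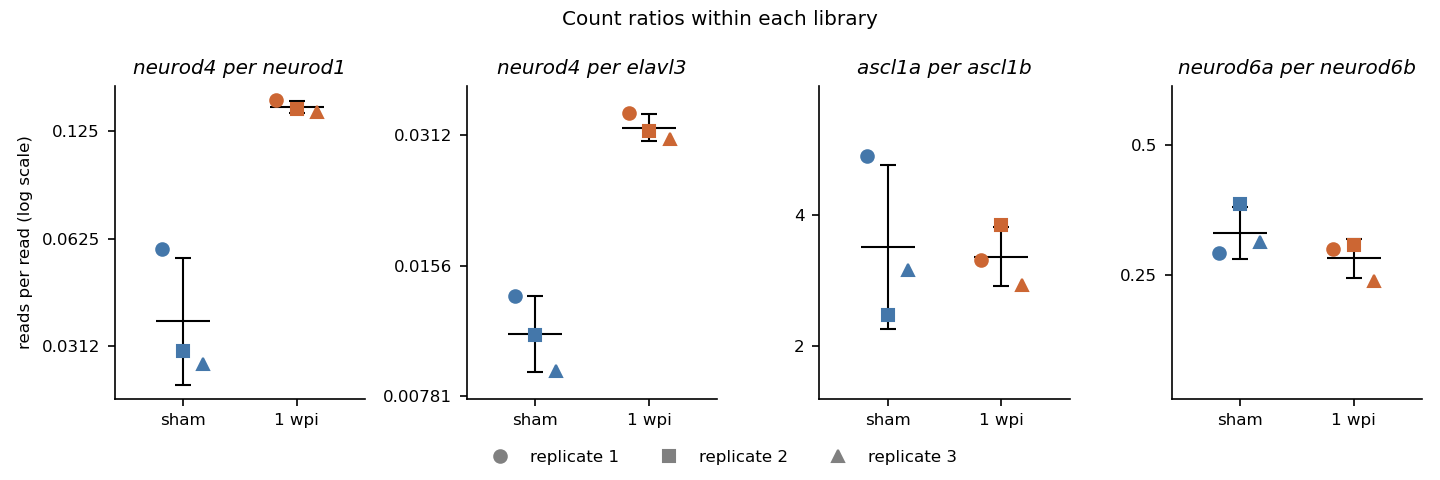
Reads of 1 gene per read of another within each library, on log scales, for sham and 1 wpi cords. Symbols mark the replicate, and horizontal lines and bars give the mean ± SD of the log2 ratio over 3 libraries. neurod4 per neurod1 and neurod4 per elavl3 are higher in every injured than in every sham library, whereas ascl1a per ascl1b and neurod6a per neurod6b overlap.

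Mature neurons can express Neurod genes, so neurod1, neurod6a and neurod6b were compared with a list of neuronal genes. Of 18 tested genes of the mature neuron list, 5 fell and 0 rose (background: 4.83% and 5.81% of all genes). Those that fell included nefmb (log2 fold change -1.84, edgeR adjusted p = 0.0294), a neurofilament gene, and slc6a5 (-1.36, adjusted p = 0.0345), the glycine transporter of inhibitory neurons. Another was chata (-1.05, adjusted p = 0.0365), the enzyme of acetylcholine synthesis. The other 13 did not pass, and stmn2b, a stathmin gene, pointed the other way (0.44, adjusted p = 0.0634). Leaving out sham replicate 1 gave 15 lower and 1 higher gene, stmn2b, against a background of 28.2% and 29% of all genes. The list summed to 19447, 30632 and 34672 CPM in sham and 14728 to 15314 CPM in injured libraries, and no gene of it was at 0. neurod1 had 2.26, 2.41 and 2.21 reads per 1000 reads of this list in sham and 2.97, 2.85 and 2.98 in injured libraries. On this scale sham replicate 1 lay with the other shams, and the injured ratio was 1.28-fold higher. The ratios of neurod6a and neurod6b to the same list were 1.53-fold and 1.74-fold higher in injured cords, also without overlap. For neurod1 the injured mean was thus the lower in CPM and the higher per read of this list. The most abundant genes of the list, nefma and snap25a, had means of 10382 and 6055 CPM in sham and 5935 and 2439 CPM in injured cords. The ratios therefore follow mostly such abundant genes, and the list does not stand for every neuronal gene. elavl3, outside the list, had means of 213 CPM in sham and 198 CPM in injured cords. Sensory neurons of dorsal root ganglia express Neurod genes too, and the 9 tested genes of that list summed to 310 to 426 CPM in sham and 624 to 639 CPM in injured libraries, most of it calca (log2 fold change 0.89, edgeR adjusted p = 0.0314), while the defining gene prdm12b did not pass. Of these 9, 2 were higher and 1 lower without sham replicate 1. The part of either cell type in the Neurod levels was not tested.

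ERGs are the progenitors of the cord, and some of their genes were higher after injury. Of 12 tested, 3 rose (background: 5.81%), 0 fell (background: 4.83%) and 9 did not pass. Those that rose were sox2 (log2 fold change 0.62, edgeR adjusted p = 0.0281), a factor of neural progenitors, vim (0.71, adjusted p = 0.0294), and foxj1a (1.12, adjusted p = 0.0301), a regulator of motile cilia. The fit without sham replicate 1 had 6 higher and 1 lower, the connexin gene cx43. Per 1000 reads of the ERG list, neurod4 was 0.148, 0.0964 and 0.105 in sham and 0.275, 0.252 and 0.249 in injured libraries, a 2.26-fold difference without overlap. nhlh2 and ascl1b were 1.27-fold and 1.41-fold higher on this scale, also without overlap. ascl1a was 0.579, 0.293 and 0.325 in sham and 0.464, 0.534 and 0.534 in injured libraries, where sham replicate 1 was the highest of all 6 and the groups overlapped. These ratios follow mostly the abundant genes of the list. Its highest, gfap and s100b, had means of 8354 and 3426 CPM in sham and 10608 and 3952 CPM in injured cords, and neither passed. Beside the called ERG genes (0.62, 0.71 and 1.12), the log2 fold changes of neurod4, nhlh2 and ascl1b were 1.48, 0.65 and 0.79. Cell cycle genes, of which 0 of 17 passed in either direction with all libraries, were 17 of 17 higher without sham replicate 1 (background: 29%). Genes of microglia and macrophages summed to 3158 to 5276 CPM in sham and 9832 to 10798 CPM in injured libraries. Most of the injured sum was apoeb, with a mean of 2061 CPM in sham and 8055 CPM in injured cords. Of this list 3 of 11 were higher (background: 5.81%), and 10 of 11 without sham replicate 1 (background: 29%). The part of these cells in the proneural levels was not tested.

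The partners and inhibitors of the proneural proteins were read next, from lists that were drawn up with earlier results of these libraries known. Of the 3 tested E protein genes, 2 rose by small amounts (background: 5.81%). tcf3b had 110, 115 and 114 CPM in sham and 142, 144 and 156 CPM in injured libraries (log2 fold change 0.38, edgeR adjusted p = 0.0353). tcf12 differed by 0.29 on the log2 scale (adjusted p = 0.0497). tcf3a did not pass (-0.06, adjusted p = 0.925). Both calls stood without sham replicate 1. Of the 5 Id genes, 1 fell (background: 4.83%) and 0 rose (background: 5.81%), and without sham replicate 1, 3 were lower (background: 28.2%). id4, whose product blocks E protein dimers and is known from neural stem cells in mouse, had 17.7, 29.6 and 28.1 CPM in sham and 13.0, 12.2 and 12.9 CPM in injured libraries. Every injured library lay below every sham library, and sham replicate 1 was the lowest sham (log2 fold change -0.99, edgeR adjusted p = 0.0425, and -1.18 without it). The median over the Id genes was -0.24 and over the E protein genes 0.29, against -0.03 for all genes. The Id genes had no common direction, however. The most abundant, id1 and id2a, pointed up (0.19 and 0.15, edgeR adjusted p = 0.179 and 0.237). id2b and id3 pointed down (-0.57 and -0.24, adjusted p = 0.0567 and 0.277). The Id list summed to 369 to 441 CPM in sham and 400 to 434 CPM in injured libraries, with overlap.

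Several genes of the Notch pathway rose. Of 16 tested ligands, receptors and modulators, 6 rose and 0 fell (background: 5.81% and 4.83%), with a median log2 fold change of 0.54. The Delta ligand genes dla, dlc and dld, which proneural factors switch on, were all among them. dla had 20.2, 21.97 and 21.4 CPM in sham and 32.0, 30.5 and 31.4 CPM in injured libraries (log2 fold change 0.56, edgeR adjusted p = 0.0294). dlc and dld had log2 fold changes of 0.70 (adjusted p = 0.0294) and 0.49 (adjusted p = 0.0402). The others were lfng, which encodes a glycosyltransferase that modifies Notch (1.04, adjusted p = 0.0345), the receptor gene notch1a (0.53, adjusted p = 0.0345) and the ligand gene jag1b (0.51, adjusted p = 0.0346). Of the 16, 14 were higher, dlb among them, and 1 lower, dll4, without sham replicate 1 (background: 29% and 28.2%). Of 13 tested Hes, Her and Hey repressor genes, a family that holds Notch targets, 2 rose and 0 fell (background: 5.81% and 4.83%). Those that rose were her13 (1.28, adjusted p = 0.0345) and hey2 (0.67, adjusted p = 0.0429). Of these 13, 4 were higher and 1 lower without sham replicate 1. Their median was 0.08, so as a list they lay near the median of all genes. Of 21 listed repressor genes 18 were found in the count files, her4.1 and her4.4 not among them. A mean under 1 CPM was seen for 8 of the 18, so the family was read in part only.

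**Figure D4:**
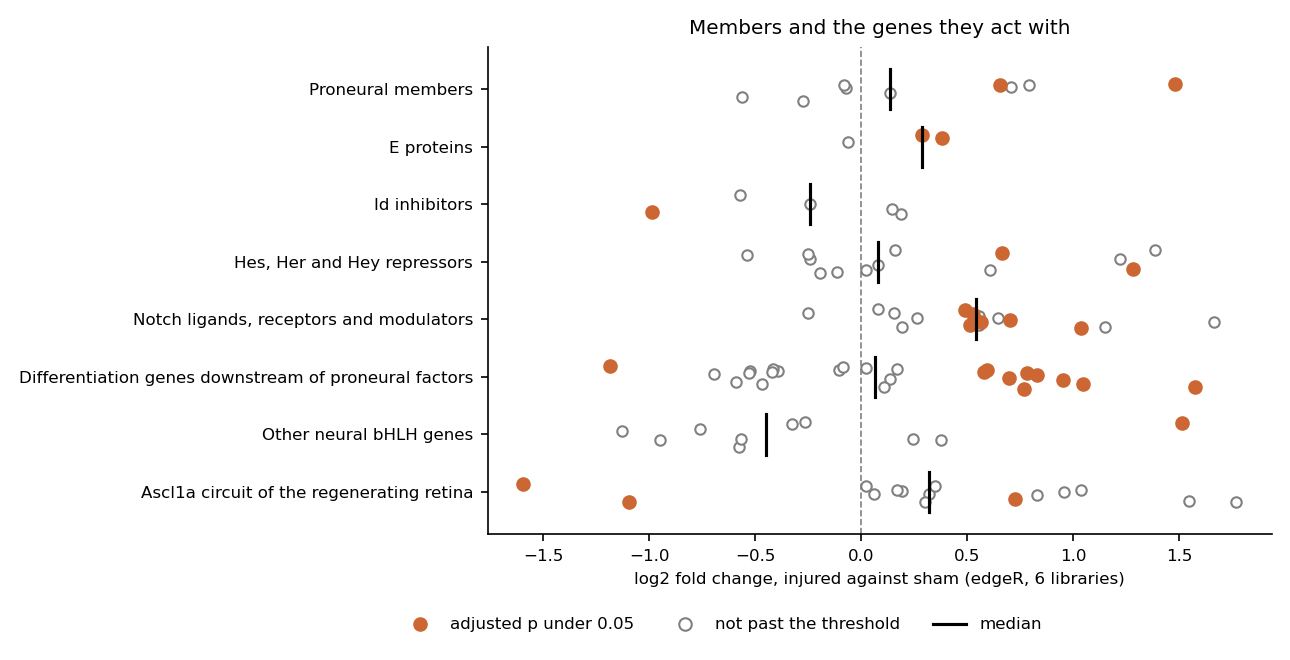
Log2 fold change, injured against sham cords with all 6 libraries, of the tested proneural genes and of each tested gene in the 7 lists of partners, inhibitors, repressors, Notch genes, differentiation genes, other bHLH genes and retina circuit genes. Filled points passed edgeR's test at an adjusted p below 0.05, open points did not, and vertical bars are list medians, which run from -0.45 for the other neural bHLH genes to 0.54 for the Notch genes.

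Genes that proneural factors are known to switch on in differentiating neurons moved in both directions. Of 24 tested, 9 rose and 1 fell (background: 5.81% and 4.83%), with a median log2 fold change of 0.07. The SoxC genes sox4a, sox4b and sox11a, transcription factors of newly formed neurons, were among the 6 with the lowest adjusted p. sox4a had 142, 126 and 123 CPM in sham and 243, 214 and 236 CPM in injured libraries (log2 fold change 0.83, edgeR adjusted p = 0.0281), and sox4b and sox11a had log2 fold changes of 0.59 and 0.58 (adjusted p = 0.0312 and 0.0393). The other 3 were cdkn1ca, an inhibitor of cyclin-dependent kinases (0.69, adjusted p = 0.0294), gadd45gb.1, of a family linked to growth arrest (0.77, adjusted p = 0.0346), and ebf2, a transcription factor of young neurons (0.95, adjusted p = 0.0424). The gene that fell was scrt1b, a Scratch family repressor (-1.19, adjusted p = 0.0465), named although it lies outside the 6. Also outside the 6, the SoxC gene sox11b rose (0.78, adjusted p = 0.0450), as did tubb5 (1.57, adjusted p = 0.0444) and gadd45ga (1.05, adjusted p = 0.0495). Without sham replicate 1 the list held 9 higher and 9 lower genes, in a fit where 28.2% of all genes were lower against 4.83% with all libraries.

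The other bHLH genes of the nervous system had a median log2 fold change of -0.45, against -0.03 for all genes. Of 10 tested, 1 rose and 0 fell (background: 5.81% and 4.83%). The gene that rose was olig4, an Olig family gene with few reads, at 0.840, 0.604 and 0.499 CPM in sham and 2.21, 1.78 and 1.55 CPM in injured libraries (log2 fold change 1.51, edgeR adjusted p = 0.0402). In the fit without sham replicate 1, 1 gene of the list was higher and 8 were lower (background: 29% and 28.2%). That count covers every listed gene that passed the filter of that fit, and takes in a lower gene outside these 10.

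In the regenerating zebrafish retina ascl1a acts with Stat3 and Wnt signaling and lowers dkk genes, which encode secreted Wnt inhibitors. Of 15 tested genes of that circuit, 1 rose, a share near the background of 5.81%, and 2 fell (background: 4.83%). stat3 had 188, 143 and 143 CPM in sham and 251, 267 and 266 CPM in injured libraries (log2 fold change 0.73, edgeR adjusted p = 0.0352). dkk2 had 9.14, 14.7 and 12.4 CPM in sham and 5.75, 5.69 and 5.51 CPM in injured libraries (-1.10, adjusted p = 0.0352), and dkk1b a log2 fold change of -1.59 (adjusted p = 0.0359). The other dkk genes of the list, dkk1a and dkk3b, pointed the other way and did not pass (1.55 and 0.83, adjusted p = 0.122 and 0.277), so the dkk genes had no common direction. When sham replicate 1 was left out, the list held 10 higher genes (background: 29%), dkk1a and dkk3b among them, and 2 lower genes, dkk2 and dkk1b.

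Over all genes whose mean reached 1 CPM, those whose pattern over the 6 libraries was closest to a called member were listed, by the root mean square difference of log2 CPM after each gene was centred on its own mean. For neurod4, among 12292 genes, they were smkr1 (0.105), si:ch211-57h10.1 (0.116) and sox21b (0.142), the last a Sox gene of neural progenitors. For nhlh2 they were the Delta gene dla (0.0546), the myelin gene plp1a (0.0565) and fam221a (0.0635). All 6 were themselves called as higher with all libraries, which is largely built into choosing genes by likeness to called members.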

How the data were processed

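RNA-seq of 3 sham and 3 injured libraries was analysed from the counts that the authors deposited, whole numbers of reads per gene symbol, not normalized. Per the labels and methods, 50-bp single-end reads were trimmed (Trim Galore), aligned to danRer10 with TopHat2 (version 2.2.1 in the submitters' processing notes, another in the methods), kept above a mapping quality of 30 (SAMtools 1.3.1) and counted with HTSeq 0.6.0. The study itself used DESeq2 1.26.0. Reads of near-identical copies may thus be undercounted, and annotation and strand setting were not given in the sources used. The 5 rows of uncounted reads were left out (44.3%, 51.5% and 51.9% of all rows in sham and 41.8% to 42.6% in injured libraries). Libraries of a group differed by more than sampling noise.

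The members and lists were chosen with earlier results of these data known. In R 4.3.3, edgeR 4.0.16 filtered genes (minimum count 10, minimum total 15), scaled by TMM and fitted 1 term for injury by quasi-likelihood, with Benjamini-Hochberg adjustment over all 12804 genes. Exact two-sided permutation tests over libraries cannot go below p = 0.1 here. Named genes were all members, up to 6 called genes per pathway list and 3 per marker list by adjusted p, and the 3 nearest profiles. Genes outside this rule (elavl3, tcf3a, scrt1b, prdm12b, myo7aa, stmn2b, nefma, snap25a, cx43, dkk1a, dkk3b, dlb, dll4) were chosen after their values were seen. The same holds for id1, id2a, id2b, id3, gfap, s100b, sox11b, tubb5 and gadd45ga. Alternatives were RLE and upper-quartile scaling, TMM without genes of other tissues, DESeq2 1.42.0, limma-voom (limma 3.58.1) with sample weights, other filters, a replicate block and each library left out, and for ratios leaving out each library, added after the data were seen. RefSeq names come from a table of another assembly, whose coordinates served only to find genes that overlap a member and may differ from danRer10. The fits were tested on simulated data.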

Additional observations from a re-analysis of the deposited data

How the results depend on the processing

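RLE scaling, upper-quartile scaling, scaling without genes of other tissues and both other filters left 2 members called higher and 0 lower. DESeq2 called 1878 genes higher and 1888 lower, with 4 members higher and 1 lower, and limma-voom with sample weights called 3740 and 3805, with 2 members lower. With each library left out, edgeR called 0 to 3750 genes higher and 0 to 3647 lower (0 to 3 members higher, 0 to 2 lower), and all calls came from the fit without sham replicate 1. DESeq2 called 859 to 3628 genes higher and 786 to 3405 lower, and members lower numbered 0 to 2. neurog1 reversed to -0.076 under limma-voom and, without sham replicate 1, to -0.053 with edgeR and -0.051 with DESeq2. Without sham replicate 3, neurod2 and neurod6b reversed to 0.044 and 0.055 with either tool. Over the libraries left out with edgeR, neurog1 ran from -0.053 to 0.295, neurod2 from -0.145 to 0.044 and neurod6b from -0.156 to 0.055. The ascl1a per ascl1b log2 ratio difference ran from -0.333 to 0.277, reversing without sham replicate 1 (0.277) and without injured replicate 3 (0.034). These reversed values did not pass the test where one was run, and the cause was not tested. Without a filter edgeR gave atoh1a 1.62 on the log2 scale (SE 1.29, adjusted p = 0.401).

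Replicate numbers are shared by the titles of both groups, but deviations of same-numbered libraries correlated at -0.165, -0.0264 and 0.0671, so they were not treated as pairs. With the replicate block edgeR called 0 genes higher and 0 lower, and 0 members (adjusted p = 0.0847 for neurod4 and 0.0876 for nhlh2), with 4322 genes and 5 members at an unadjusted p below 0.05. No library correlated best with the library of its own number in the other group.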
